A study of Mus musculus with 12 samples.

Results

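The 8 surface genes of mouse small intestinal (SI) eosinophils examined here were the checkpoint and costimulatory ligands Cd274 (PD-L1), Pdcd1lg2 (PD-L2), Cd80, Cd86, and Icosl, the tetraspanin Cd9, and the ectoenzymes Nt5e (CD73) and Entpd1 (CD39). They were chosen by name, as ligands of T cell receptors and as surface proteins reported on activated gut eosinophils. All 8 were among the 36047 genes measured, and all 8 were among the 15249 genes with an average normalized count above 10 that were tested. RNA was sequenced from 3 eosinophil subsets, α4β7+, α4β7− CD22−, and CD22+, with 4 libraries per subset and 2 pooled mice per library. The integrin α4β7 is a gut-homing receptor and CD22 is a lectin. Per the labels, every group came from untreated female wild type C57BL/6J mice, while the methods name both sexes. All mice were 6 to 12 wk old and were kept on chow at 22 °C with 12 h of light and 12 h of dark. Proximal SI lamina propria cells were gated as CD45+ CD11b+ SiglecF+ MHCII− Ly6G−, so the subsets share genotype, tissue, and treatment, and differ in the markers they were sorted on. The subsets correspond roughly to younger, intermediate, and older cells of the tissue in the study, but the subsets are sort gates and not time points. The labels do not say which mice went into which library, so p measures the spread between these libraries.

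PD-L1 and PD-L2 are the ligands of the inhibitory T cell receptor PD-1. CD80 and CD86 engage both the activating receptor CD28 and the inhibitory receptor CTLA-4, and CD80 can also bind PD-L1 on the same membrane. ICOSL engages ICOS, a costimulatory receptor of activated T cells. CD39 hydrolyzes extracellular ATP and ADP to AMP, and CD73 converts AMP to adenosine, so that together they turn a danger signal into one that restrains immune cells. CD9 organizes other membrane proteins into microdomains and is abundant on eosinophils. Surface CD80 and PD-L1 are used as markers of an activated state of intestinal eosinophils, for which the question here was how far the RNA of each gene differed between the sorted subsets.

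The sort genes and lineage markers were checked first. Cd22 was 1115 ± 175, 4462 ± 934, and 13334 ± 1588 normalized counts in α4β7+, α4β7− CD22−, and CD22+ eosinophils (mean ± SD, n = 4, here and below), and the β7 integrin gene Itgb7 was 2526 ± 520, 220 ± 81.0, and 156 ± 86.5, so both followed the gates. Of 6 eosinophil markers, Siglecf lay at 7534, 7827, and 7340 normalized counts on average in the same order and passed no test, while Ccr3 and Prg2 were called lower in both other subsets than in α4β7+, and Epx and Il5ra in CD22+ alone. Adgre1 averaged 16843, 16665, and 13996 and was called in no comparison, although it passed the adjusted p in CD22+ over α4β7+ (−0.27, adjusted p = 0.0129). The sum of the 6 had medians of 51821, 41871, and 33902 normalized counts. Most of its fall was Ccr3, which averaged 25121, 15187, and 10773, and the part of these markers in the results below was not tested. Markers of other cells were present in every subset. Those called between subsets, apart from Ngp below, were the T cell markers Cd3e and Cd8a and the dendritic cell marker Itgae. They were lower in α4β7− CD22− than in α4β7+ (limma log2 fold changes −1.11, −0.92, and −0.84, adjusted p = 0.0168, 0.0178, and 0.0248). The summed normalized counts of 7 macrophage markers ran from 1668 to 3211 per library, of 6 dendritic cell markers from 1392 to 3547, of 6 epithelial markers from 911 to 5688, of 5 B cell markers from 112 to 305, of 3 plasma cell markers from 2409 to 7351, of 5 T cell markers from 537 to 1388, and of 6 stromal and endothelial markers from 10488 to 13789, most of it Pecam1. Pecam1 averaged above Siglecf in every subset, and which cells it came from was not tested. Of 5 neutrophil markers, Camp and Elane were at or below 3 normalized counts in all libraries, near the floor of 3 reads, which was 2.56 to 3.48 normalized counts, and Ly6g and Mpo reached at most 10.8 and 25.9. The remaining one, Ngp, averaged 31.6, 106, and 143 and was called higher in both other subsets than in α4β7+. Of 5 mast cell markers, Mcpt2 and Tpsb2 were at or below 3, Cpa3 and Mcpt1 reached at most 4.28 and 9.27, and Kit averaged 112 over the 12 libraries. The libraries held an estimated 13858261 to 17321909 reads, and the normalized counts of a library summed to between 14286474 and 16915755. In sorted bulk samples, fewer cells of a type and less RNA per cell cannot be told apart.

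Levels were compared between genes per kb of the longest coding transcript. Cd9 was the most abundant of the 8, at 5106 normalized counts per kb on average over the 12 libraries, which placed it 139th of 14052 ranked genes. Entpd1 followed at 2515 per kb, Cd80 at 1631, and Cd274 at 1448, and these 4 genes were all above the 95th percentile of ranked genes. Icosl was intermediate at 275 per kb. Cd86 at 94.3 and Pdcd1lg2 at 87.5 per kb were near the middle of the ranked genes, with percentiles of 52.3 and 50.9. Nt5e was the least abundant, at 12.9 per kb and the 19.3 percentile. Each of the 3 pairs of related genes held an abundant and a scarcer member at the RNA level, with Cd274 far above Pdcd1lg2, Cd80 far above Cd86, and Entpd1 far above Nt5e. The levels per kb of Cd80 and Cd274 overlapped over the 12 libraries, and so did those of Cd86 and Pdcd1lg2.

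**Figure D1:**
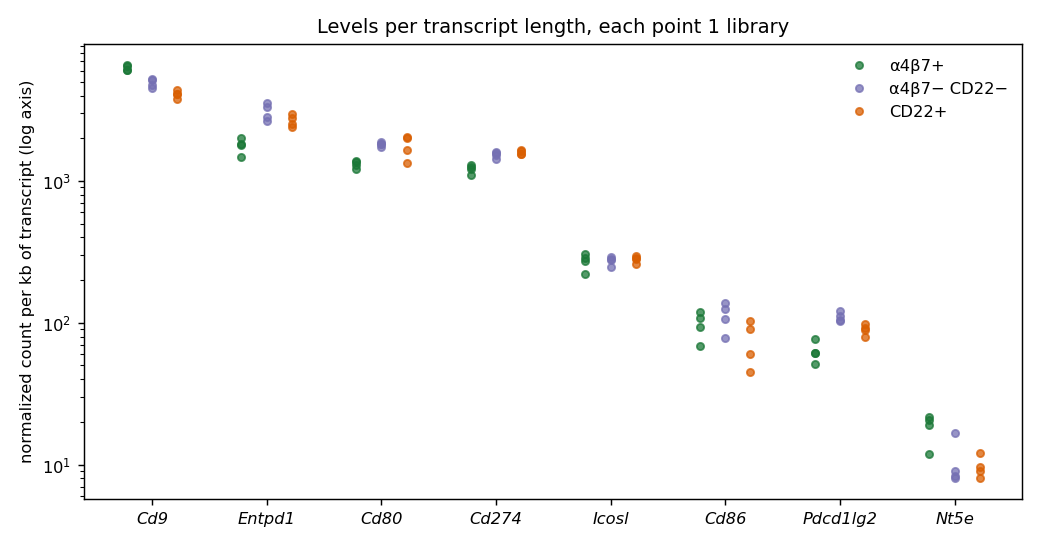
Normalized counts per kb of the longest coding transcript (log axis) for the 8 genes, ordered by their mean, with 1 point per library and 4 libraries per subset. Cd9, Entpd1, Cd80, and Cd274 lie above Icosl, and Nt5e lies lowest, at 12.9 per kb on average.

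In what follows a gene is said to have risen or fallen where its Benjamini-Hochberg adjusted p from limma was at most 0.05, and to have been called where its fold change was also at least 1.5. From the α4β7+ to the α4β7− CD22− subset, 2 of the 8 genes were called, Pdcd1lg2 and Entpd1, both higher, beside a background of 8.05% of all genes tested (3.7% called higher). By the adjusted p alone 5 of 8 differed, against 14.9% of all genes (7.13% higher and 7.73% lower), with Cd274, Pdcd1lg2, Cd80, and Entpd1 higher and Cd9 lower. The median log2 fold change of the 8 was 0.26, against 0.003 over all genes tested. Between the CD22+ and α4β7+ subsets, 3 were called, Entpd1 higher and Cd9 and Nt5e lower, against 12% of all genes (5.6% higher and 6.39% lower), and by the adjusted p alone 6 of 8 differed, against 21.1%, with Cd274, Pdcd1lg2, Cd80, and Entpd1 higher (10% of all genes) and Cd9 and Nt5e lower (11.1%). The 3 called there became 1, Cd9, without α4β7+ replicate 2, CD22+ replicate 1, or CD22+ replicate 2, and 4 without α4β7+ replicate 1. There the median log2 fold change was 0.22, against 0.014 over all genes. Between the CD22+ and α4β7− CD22− subsets, none of the 8 passed in limma, with or without the fold threshold, against 0.603% and 1.08% of all genes, and 2 of them, Cd86 and Cd9, had an unadjusted p below 0.05 there, against 9.67% of all genes. The median of the 8 was −0.14 in that comparison, against −0.001 over all genes. Libraries did not overlap for 5, 4, and 2 of the 8 genes in these comparisons, against 18.8%, 22.9%, and 6.37% of all genes. The first 2 comparisons share the α4β7+ libraries and are not independent of each other.

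**Figure D2:**
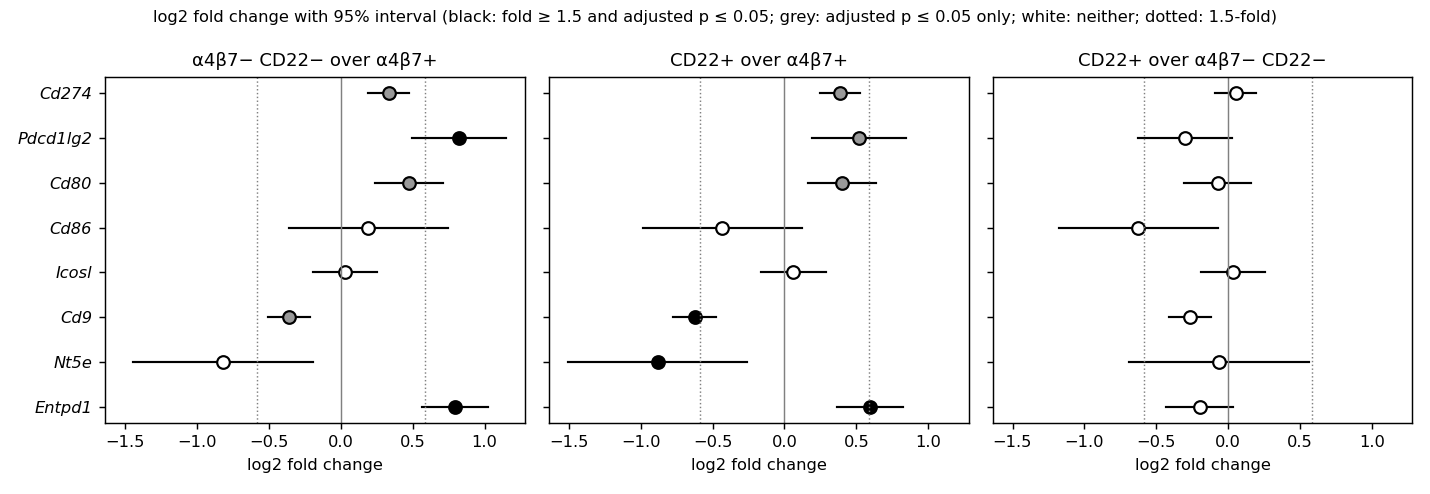
log2 fold changes of the 8 genes with their 95% intervals in the 3 comparisons of subsets, from limma on 4 libraries per subset. Filled black points passed both thresholds, grey points the adjusted p alone, and white points neither, and the dotted lines mark 1.5-fold; Pdcd1lg2 and Entpd1 are the black points on the left panel, at 0.82 and 0.80.

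The genes that rose together were next read for sequence shared near their start sites. RefSeq gave promoter windows on GRCm38.p6, from 250 bases before to 50 bases after a start, for 7 of the 8 genes, with 2 windows for Entpd1, and Cd86 was not matched. The windows were searched on both strands for an AP-1 site (TGANTCA), an interferon gamma activated site (TTCNNNGAA), an interferon response element core (GAAANNGAAA), an aryl hydrocarbon receptor (AHR) element core (GCGTG), a retinoic acid response element core (AGGTCA), and an NF-kB site of 10 bases. AHR and retinoic acid are known regulators of SI eosinophils, and interferon and NF-kB of PD-L1. The windows of the 4 genes that rose are printed 5′ to 3′ because these genes share a direction here, with Cd9 and Nt5e as the members that fell, and capitals mark the matches. The windows lie at chr19:29367188-29367487 (Cd274), chr19:29410669-29410968 (Pdcd1lg2), chr16:38458683-38458982 (Cd80), chr19:40612116-40612415 and chr19:40659520-40659819 (Entpd1, upstream and downstream starts), and chr9:88327359-88327658 (Nt5e), all on the plus strand, and chr6:125494711-125495010 on the minus strand (Cd9).
Cd274: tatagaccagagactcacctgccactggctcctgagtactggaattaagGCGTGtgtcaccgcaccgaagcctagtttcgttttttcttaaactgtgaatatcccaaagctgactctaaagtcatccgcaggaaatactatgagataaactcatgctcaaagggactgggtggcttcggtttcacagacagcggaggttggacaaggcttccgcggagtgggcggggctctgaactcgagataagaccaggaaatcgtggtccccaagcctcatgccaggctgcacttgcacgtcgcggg
Pdcd1lg2: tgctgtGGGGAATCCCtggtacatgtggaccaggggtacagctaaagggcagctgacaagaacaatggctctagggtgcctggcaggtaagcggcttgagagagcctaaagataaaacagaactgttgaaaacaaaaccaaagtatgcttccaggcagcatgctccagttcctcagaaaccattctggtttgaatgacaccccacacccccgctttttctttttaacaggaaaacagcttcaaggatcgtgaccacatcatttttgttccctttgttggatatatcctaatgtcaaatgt
Cd80: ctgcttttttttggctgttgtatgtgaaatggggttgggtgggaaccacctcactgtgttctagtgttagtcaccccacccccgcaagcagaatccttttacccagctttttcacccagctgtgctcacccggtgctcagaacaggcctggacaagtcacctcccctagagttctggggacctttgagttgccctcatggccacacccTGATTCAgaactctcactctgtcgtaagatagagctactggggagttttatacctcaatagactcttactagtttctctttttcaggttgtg
Entpd1, upstream start: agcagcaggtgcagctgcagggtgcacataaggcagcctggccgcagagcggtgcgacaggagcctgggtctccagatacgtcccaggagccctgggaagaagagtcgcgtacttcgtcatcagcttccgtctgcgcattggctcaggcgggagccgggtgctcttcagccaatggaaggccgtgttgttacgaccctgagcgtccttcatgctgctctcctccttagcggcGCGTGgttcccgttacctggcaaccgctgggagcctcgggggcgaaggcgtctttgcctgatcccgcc
Entpd1, downstream start: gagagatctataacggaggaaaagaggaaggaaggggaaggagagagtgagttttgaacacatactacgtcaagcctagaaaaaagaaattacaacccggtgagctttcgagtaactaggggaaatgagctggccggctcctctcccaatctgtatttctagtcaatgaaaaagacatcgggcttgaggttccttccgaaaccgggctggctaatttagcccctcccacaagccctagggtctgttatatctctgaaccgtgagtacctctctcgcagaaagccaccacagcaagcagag
Cd9: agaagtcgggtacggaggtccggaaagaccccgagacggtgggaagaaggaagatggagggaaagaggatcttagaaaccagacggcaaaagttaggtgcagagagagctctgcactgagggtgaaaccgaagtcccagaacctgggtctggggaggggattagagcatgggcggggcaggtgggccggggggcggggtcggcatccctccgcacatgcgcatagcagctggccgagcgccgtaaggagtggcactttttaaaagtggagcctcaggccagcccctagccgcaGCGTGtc
Nt5e: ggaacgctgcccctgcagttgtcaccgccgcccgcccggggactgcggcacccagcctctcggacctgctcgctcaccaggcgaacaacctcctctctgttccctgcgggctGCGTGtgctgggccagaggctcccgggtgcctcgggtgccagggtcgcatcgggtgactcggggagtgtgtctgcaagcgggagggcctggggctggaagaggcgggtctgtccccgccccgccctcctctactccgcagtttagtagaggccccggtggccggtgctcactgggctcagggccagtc
Each of these windows but the downstream one of Entpd1 held 1 match, and the 4 genes that rose held no motif in common. The AHR element core began 201 bases before the start in Cd274, 18 before the upstream start in Entpd1, and 43 after it in Cd9. It also began 138 bases before the RefSeq start of Nt5e, and it occurs in 32.4% of all 32851 windows of this length. The NF-kB match of Pdcd1lg2 began 244 bases before its start, and that motif is in 4.51% of windows. The AP-1 match of Cd80 began 42 bases before its RefSeq start, and that motif is in 7.81%. The Cd80 and Nt5e windows lie wholly inside the gene models given below, which start at 38455561 and 88327197. Both matches thus come after those gene starts. No window of the 8 genes held the 2 interferon motifs, present in 8.30% and 3.44% of windows, or the retinoic acid response element core, present in 16.3%, and the window of Icosl held none of the motifs. These matches describe the letters of the windows, and binding was not measured.

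Cd274 and Pdcd1lg2 are neighbours on chromosome 19 (GRCm38), Cd274 at 29367455 to 29388095 and Pdcd1lg2 at 29410919 to 29471161, both on the plus strand. Both rose from the α4β7+ to the α4β7− CD22− subset, the scarcer PD-L2 gene by the larger factor. Cd274 was 4721, 4016, 4544, and 4375 normalized counts in α4β7+ replicates 1 to 4, 5196, 5823, 5731, and 5484 in α4β7− CD22−, and 5576, 5845, 5977, and 5627 in CD22+. The α4β7+ libraries were below all others, and the other 2 subsets overlapped. The log2 fold change of Cd274 was 0.33 for α4β7− CD22− over α4β7+ (fold 1.26, 95% interval 0.19 to 0.47, adjusted p = 0.00296) and 0.38 for CD22+ over α4β7+ (fold 1.31, 95% interval 0.24 to 0.53, adjusted p = 0.000576). Neither reached 1.5-fold, and CD22+ over α4β7− CD22− gave 0.05 (95% interval −0.09 to 0.19, adjusted p = 0.891). The summed plasma cell markers were highest in the library lowest in Cd274 in α4β7+ (6869, replicate 2) and in α4β7− CD22− (7252, replicate 1), but in CD22+ in the library second highest in Cd274 (7351, replicate 2). The CD11b+ gate is meant to leave out plasma cells, and their part in Cd274 was not tested. Stretches that make up 18.4% of the Cd274 transcript also occur, at 90% identity or more, in transcripts of 69 other genes, and how reads of these stretches were assigned was not tested.

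Pdcd1lg2 followed another course, highest in the intermediate gate. It was 134, 105, 106, and 89.2 normalized counts in α4β7+ replicates 1 to 4, 182, 209, 194, and 178 in α4β7− CD22−, and 158, 138, 155, and 169 in CD22+. The 3 subsets did not overlap in any pair, with CD22+ between the other 2. Pdcd1lg2 was called for α4β7− CD22− over α4β7+, with a log2 fold change of 0.82 (fold 1.77, SE 0.15, 95% interval 0.49 to 1.15, adjusted p = 0.00196), and it rose in CD22+ over α4β7+ by 0.52 (fold 1.44, 95% interval 0.19 to 0.85, adjusted p = 0.0243). That second rise missed an adjusted p of 0.05 without α4β7+ replicate 3 (0.0512) or 4 (0.0708) and without CD22+ replicate 1 (0.059) or 4 (0.0647), and without α4β7+ replicate 1 it was called, at 0.63 (adjusted p = 0.010). For CD22+ over α4β7− CD22− the log2 fold change was −0.30 (95% interval −0.63 to 0.03, adjusted p = 0.579), although its libraries did not overlap. The summed stromal and endothelial markers had the same order of subsets, with 10488 to 11967 normalized counts in α4β7+, 12629 to 13789 in α4β7− CD22−, and 11448 to 12193 in CD22+. This order came from Pecam1 alone, which made up most of the sum and averaged 9894, 12127, and 10535. The other 5, Col1a1, Col1a2, Col3a1, Cdh5, and Pdgfra, all had their lowest mean in α4β7− CD22−, where Pdcd1lg2 was highest, and none of them passed the adjusted p between subsets. The part of these markers in Pdcd1lg2 was not tested.

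Because a ratio within a library cancels a scaling factor common to all its genes, the RNA of Cd274 relative to Pdcd1lg2 was also compared. Whether the authors' scaling factors also differed between genes is not known, and if they did, ratios are not free of scaling. The ratio of Cd274 to Pdcd1lg2 was 35.3, 38.1, 43.1, and 49.0 in α4β7+ replicates 1 to 4, 28.6, 27.8, 29.5, and 30.9 in α4β7− CD22−, and 35.3, 42.5, 38.6, and 33.3 in CD22+. The α4β7− CD22− libraries had the lowest ratios, without overlap with either other subset. The difference in mean log2 ratio was −0.49 from α4β7+ to α4β7− CD22− and 0.35 from there to CD22+, each with an exact two-sided permutation p of 0.0286, the smallest that 4 against 4 libraries allow, and 0.0514 after adjustment over the 9 tests of ratios. Within same-numbered libraries the ratio was higher in CD22+ than in α4β7− CD22− in every pair (exact permutation p = 0.125 within pairs, the smallest that 4 pairs allow). Between CD22+ and α4β7+ the difference in mean log2 ratio was −0.14, with overlapping libraries and an exact permutation p of 0.371.

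**Figure D3:**
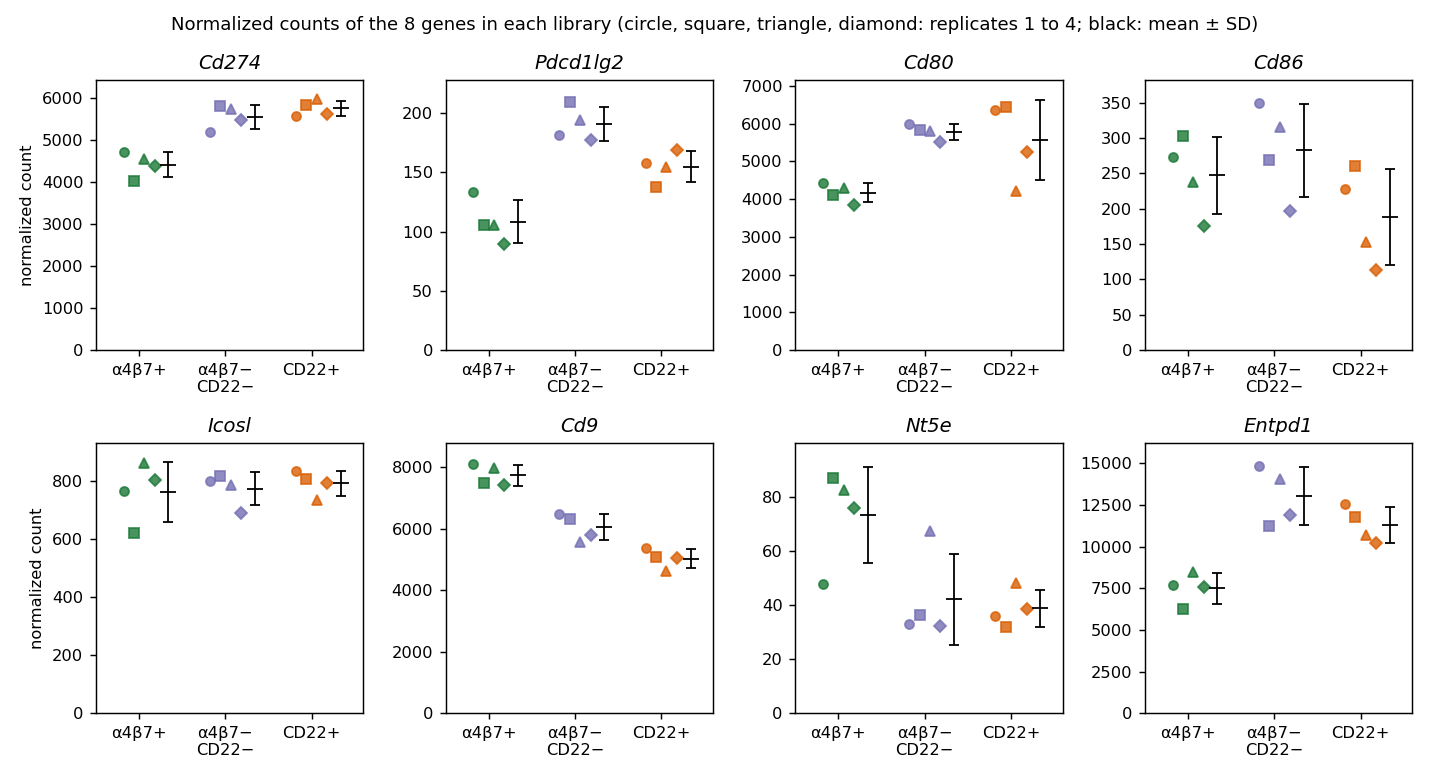
Normalized counts (linear axis from 0) of each of the 8 genes in each library by subset, with replicates 1 to 4 as circle, square, triangle, and diamond, and the mean ± SD of 4 libraries in black. Cd274, Pdcd1lg2, and Entpd1 are lowest in all 4 α4β7+ libraries, Cd9 steps down from 7742 to 6043 to 5026 on average, and CD22+ replicate 3 lies low for Cd80.

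Cd80 rose from the α4β7+ to both other subsets by less than 1.5-fold, while Cd86, its near relative, passed no test. The genes lie on chromosome 16 (GRCm38), Cd80 at 38455561 to 38496335 on the plus strand and Cd86 at 36603869 to 36666081 on the minus strand. Cd80 was 4418, 4111, 4302, and 3844 normalized counts in α4β7+ replicates 1 to 4, 5996, 5827, 5818, and 5504 in α4β7− CD22−, and 6372, 6441, 4222, and 5245 in CD22+. All α4β7− CD22− libraries were above all α4β7+ libraries, whereas CD22+ replicate 3 fell within the α4β7+ range. The log2 fold change was 0.47 for α4β7− CD22− over α4β7+ (fold 1.39, 95% interval 0.24 to 0.71, adjusted p = 0.00909) and 0.40 for CD22+ over α4β7+ (fold 1.32, 95% interval 0.16 to 0.64, adjusted p = 0.0175). The latter was 0.53 without CD22+ replicate 3 (adjusted p = 0.000415), and it missed 0.05 without α4β7+ replicate 4 (0.0516) or CD22+ replicate 1 (0.0619) or 2 (0.0592). CD22+ over α4β7− CD22− gave −0.07 (95% interval −0.31 to 0.16, adjusted p = 0.904).

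Cd86 was 273, 303, 238, and 175 normalized counts in α4β7+ replicates 1 to 4, 349, 268, 316, and 197 in α4β7− CD22−, and 229, 260, 152, and 113 in CD22+. Replicate 4 was the lowest in every subset, and the subsets overlapped in every pair. The log2 fold change of Cd86 was 0.19 for α4β7− CD22− over α4β7+ (95% interval −0.36 to 0.74, adjusted p = 0.697), −0.43 for CD22+ over α4β7+ (95% interval −0.99 to 0.12, adjusted p = 0.278), and −0.62 for CD22+ over α4β7− CD22− (95% interval −1.18 to −0.07, unadjusted p = 0.0297, adjusted p = 0.412). Cd86 was lower in CD22+ than in the same-numbered α4β7− CD22− library in 4 of 4 pairs, as were Pdcd1lg2 and Cd9. With the replicate number as a block, Cd86 in CD22+ over α4β7− CD22− had a 95% interval of −0.97 to −0.27 and an adjusted p of 0.113, still short of the threshold. Macrophages and dendritic cells also express Cd86, and their summed markers were set beside it, although the SiglecF+ MHCII− gate is meant to leave out dendritic cells and most macrophages and the CD45+ gate epithelial and stromal cells. The macrophage sum was 2355 to 2773 normalized counts in α4β7+, 1931 to 2638 in α4β7− CD22−, and 1668 to 3211 in CD22+, and it was highest in replicate 4 of each subset, the library lowest in Cd86. The dendritic cell sum was 1505, 2334, 1775, and 2091 in α4β7+ replicates 1 to 4, highest in the library with the most Cd86, whereas in the other subsets it was highest in replicate 4, at 2439 and 3547. None of the 7 macrophage markers was at 0 in all libraries of a subset. In each subset Cd80 was lowest in the library where epithelial markers were highest, replicate 3 in CD22+ and replicate 4 in the others. The epithelial sum was 911, 1530, 5688, and 3423 in CD22+ replicates 1 to 4. This sum was 2280 to 5224 in α4β7+ and 1421 to 3281 in α4β7− CD22−, with the highest value in replicate 4 of each. These pairs, and those given with Cd274, Entpd1, and Cd9, were picked after their values were seen, and the part of other cells in the levels of these genes was not tested.

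**Figure D4:**
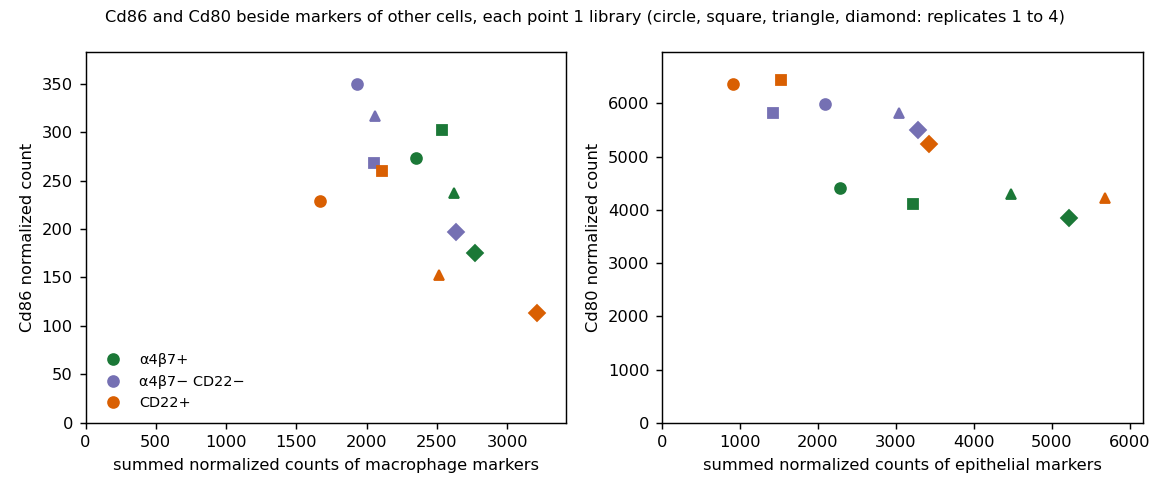
Left, Cd86 normalized count against the summed normalized counts of 7 macrophage markers; right, Cd80 normalized count against those of 6 epithelial markers; each point is 1 of the 12 libraries, coloured by subset, with replicates 1 to 4 as circle, square, triangle, and diamond. The diamonds, replicate 4, lie at the highest macrophage sum and lowest Cd86 of each colour, and the CD22+ triangle at an epithelial sum of 5688 has the lowest Cd80 of its subset, 4222.

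The balance of Cd80 and Cd86 separated the CD22+ from the α4β7+ libraries. The ratio of Cd80 to Cd86 was 16.2, 13.6, 18.1, and 21.9 in α4β7+ replicates 1 to 4, 17.2, 21.7, 18.4, and 27.9 in α4β7− CD22−, and 27.9, 24.7, 27.7, and 46.3 in CD22+. Between CD22+ and α4β7+ the libraries did not overlap, and the difference in mean log2 ratio was 0.83 (exact permutation p = 0.0286, 0.0514 over the 9 tests). It was 0.28 between α4β7− CD22− and α4β7+ (exact permutation p = 0.229) and 0.55 between CD22+ and α4β7− CD22− (exact permutation p = 0.0857), with overlap in both. Within same-numbered libraries, however, the ratio was higher in CD22+ than in α4β7− CD22− in 4 of 4 pairs (exact permutation p = 0.125 within pairs, the smallest that 4 pairs allow).

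Icosl was the flattest of the 8. It lies at 78069302 to 78083913 on the plus strand of chromosome 10 (GRCm38) and was 764, 620, 861, and 802 normalized counts in α4β7+ replicates 1 to 4, 798, 817, 785, and 691 in α4β7− CD22−, and 832, 805, 732, and 794 in CD22+. The means were 762 ± 103, 773 ± 56.3, and 791 ± 42.2, closer together than the SD within the α4β7+ subset. The log2 fold change was 0.03 for α4β7− CD22− over α4β7+ (95% interval −0.20 to 0.25, adjusted p = 0.903), 0.06 for CD22+ over α4β7+ (95% interval −0.16 to 0.29, adjusted p = 0.740), and 0.03 for CD22+ over α4β7− CD22− (95% interval −0.19 to 0.26, adjusted p = 0.960). All 3 intervals lay within 1.5-fold in both directions.

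The ectoenzyme genes moved in opposite directions between CD22+ and α4β7+ eosinophils, and the fall of Nt5e rested on low counts. Entpd1 (chromosome 19, 40612366 to 40741602, plus strand, GRCm38) was 7700, 6235, 8467, and 7609 normalized counts in α4β7+ replicates 1 to 4, 14869, 11263, 14090, and 11915 in α4β7− CD22−, and 12560, 11782, 10687, and 10217 in CD22+. All α4β7+ libraries were below all others. Entpd1 was called in both subsets over α4β7+, with a log2 fold change of 0.80 in α4β7− CD22− (fold 1.74, SE 0.11, 95% interval 0.57 to 1.03, adjusted p = 0.000141) and 0.60 in CD22+ (fold 1.51, 95% interval 0.37 to 0.83, adjusted p = 0.000928). The CD22+ value was near the fold threshold, and it was 0.51 without α4β7+ replicate 2 (adjusted p = 0.00291), 0.54 without CD22+ replicate 1 (0.00422), and 0.58 without CD22+ replicate 2 (0.00373), each short of 1.5-fold. The summed T cell markers were 850, 1388, 829, and 909 normalized counts in α4β7+ replicates 1 to 4, 537, 813, 770, and 781 in α4β7− CD22−, and 882, 818, 895, and 1245 in CD22+. They were highest in the library of each subset that was lowest in Entpd1, which in α4β7+ was replicate 2. The CD11b+ SiglecF+ gate is meant to leave out T cells, and their part in Entpd1 was not tested. Between CD22+ and α4β7− CD22− the log2 fold change of Entpd1 was −0.20 (95% interval −0.43 to 0.03, adjusted p = 0.614). Of the gene models that overlap Entpd1 on its strand, the one with the highest level, Gm8783, averaged 43.8 normalized counts, against 10616 for Entpd1.

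Nt5e (chromosome 9, 88327197 to 88372092, plus strand, GRCm38) was 47.8, 86.9, 82.7, and 76.0 normalized counts in α4β7+ replicates 1 to 4, 33.0, 36.3, 67.3, and 32.2 in α4β7− CD22−, and 36.2, 32.0, 48.3, and 38.7 in CD22+. The α4β7+ libraries were high except replicate 1, and the α4β7− CD22− libraries low except replicate 3, so subsets overlapped. Nt5e was called lower in CD22+ than in α4β7+ eosinophils, with a log2 fold change of −0.88 (fold 0.543, SE 0.29, 95% interval −1.51 to −0.26, adjusted p = 0.0441), but in only 11 of 21 alternatives. The adjusted p rose above 0.05 without α4β7+ replicate 2 (0.110), 3 (0.108), or 4 (0.0906), α4β7− CD22− replicate 2 (0.0550), or CD22+ replicate 1 (0.0936), 2 (0.109), or 4 (0.0756). For α4β7− CD22− over α4β7+ the log2 fold change was −0.82 (95% interval −1.44 to −0.19, adjusted p = 0.0776), and it passed without α4β7+ replicate 1 (−1.01, adjusted p = 0.0384) or α4β7− CD22− replicate 3 (−1.06, adjusted p = 0.0238). CD22+ over α4β7− CD22− gave −0.06 (95% interval −0.69 to 0.56, adjusted p = 0.975).

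The ratio of Entpd1 to Nt5e combined both shifts. It was 161, 71.7, 102, and 100.1 in α4β7+ replicates 1 to 4, 451, 310, 209, and 370 in α4β7− CD22−, and 347, 368, 221, and 264 in CD22+. Every α4β7+ library was below every other library. The difference in mean log2 ratio was 1.61 for α4β7− CD22− and 1.48 for CD22+ over α4β7+, each with an exact permutation p of 0.0286 (0.0514 over the 9 tests), and −0.14 between CD22+ and α4β7− CD22−, where libraries overlapped (exact permutation p = 0.629). Both enzymes act in sequence at the cell surface, and RNA ratios say nothing of enzyme activity.

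**Figure D5:**
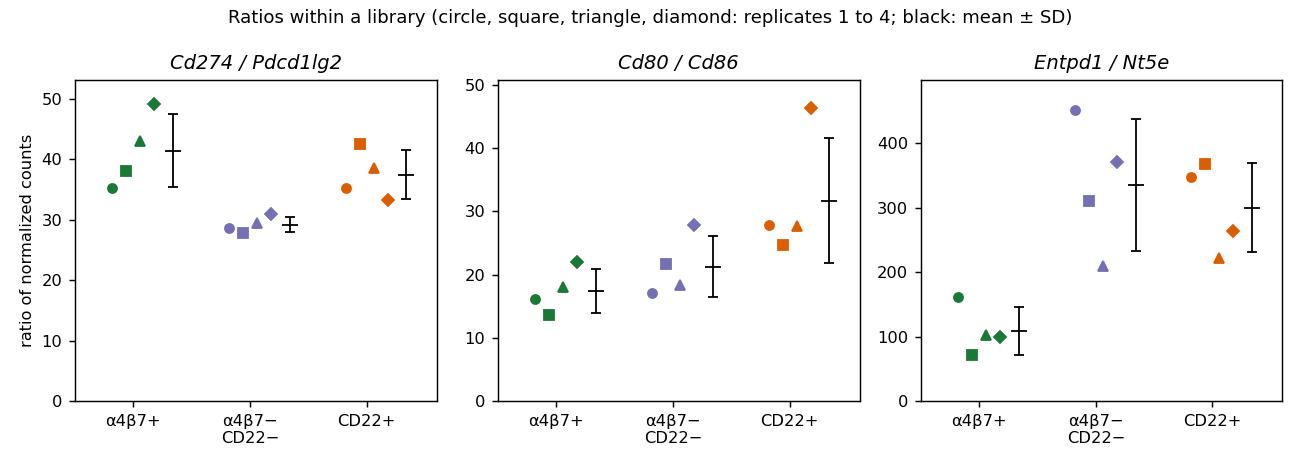
Ratios of normalized counts within each library (linear axis from 0) for Cd274 to Pdcd1lg2, Cd80 to Cd86, and Entpd1 to Nt5e in the 3 subsets, with replicates 1 to 4 as circle, square, triangle, and diamond and the mean ± SD of 4 libraries in black. The Cd274 to Pdcd1lg2 ratio is lowest in α4β7− CD22−, at 27.8 to 30.9, and the Entpd1 to Nt5e ratio is lowest in α4β7+, at 71.7 to 161.

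Cd9 was the only one of the 8 whose libraries stepped down from subset to subset without overlap. It lies at 125460266 to 125494791 on the minus strand of chromosome 6 (GRCm38). It was 8113, 7473, 7960, and 7423 normalized counts in α4β7+ replicates 1 to 4, 6476, 6317, 5582, and 5796 in α4β7− CD22−, and 5378, 5071, 4616, and 5037 in CD22+. Cd9 fell by 0.36 on the log2 scale from α4β7+ to α4β7− CD22− (fold 0.780, 95% interval −0.51 to −0.21, adjusted p = 0.00251) and was called lower in CD22+ than in α4β7+, at −0.62 (fold 0.649, SE 0.07, 95% interval −0.77 to −0.48, adjusted p = 1.05e-05). Without CD22+ replicate 3 the latter was −0.58, just short of 1.5-fold. That library had the lowest Cd9 and the highest epithelial sum of its subset, 5688, and α4β7+ replicate 4, with 5224, was likewise lowest in Cd9 and highest in epithelial markers. In α4β7− CD22−, however, the epithelial sum was highest in replicate 4 (3281) and Cd9 was lowest in replicate 3 (5582). For CD22+ over α4β7− CD22− the log2 fold change of Cd9 was −0.27 (95% interval −0.41 to −0.12, unadjusted p = 0.00173, adjusted p = 0.0998). Part of the Cd9 transcript, 665 bases at 91.1% identity, is shared with the pseudogene Cd9-ps, which reached at most 1.00 normalized count in any library.

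Whether the shift from α4β7+ to α4β7− CD22− differed from the shift from α4β7− CD22− to CD22+ was tested by subtracting the second from the first in the same model. Of the 8 genes, 1 was called, Entpd1, against 1.18% of all genes (1.23% by the adjusted p alone), with a difference of 1.00 on the log2 scale (95% interval 0.60 to 1.39, adjusted p = 0.0170). It missed the threshold without α4β7− CD22− replicate 1 (0.86, adjusted p = 0.0766) or 3 (0.92, adjusted p = 0.0728), with no filter on low values (adjusted p = 0.143), and with no variance trend (0.0900). Pdcd1lg2 had a difference of 1.12 (adjusted p = 0.0541), which passed without α4β7+ replicate 1 (1.23, adjusted p = 0.0296), with a filter at 50 (0.0448), with rescaling by the 75th percentile (0.0493), and with quantile normalization (0.0483). The differences of Cd274 (0.28, adjusted p = 0.309), Cd80 (0.55, 0.215), Cd86 (0.82, 0.493), Icosl (−0.01, 0.995), Cd9 (−0.09, 0.835), and Nt5e (−0.75, 0.603) did not pass.

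The genes that work with these 8 were taken from lists by their role, drawn up with earlier results of these data known. Beside the counts that follow, 3.7% of all genes tested were called higher and 4.35% lower in α4β7− CD22− over α4β7+, 5.6% higher and 6.39% lower in CD22+ over α4β7+, and 0.603% in either direction in CD22+ over α4β7− CD22−. An unadjusted p below 0.05 was reached by 27.1%, 32%, and 9.67% of all genes in these comparisons. Of 10 receptors of these and related ligands, 9 were tested, and Pdcd1, which encodes PD-1, averaged 8.83, 3.51, and 3.03 normalized counts and was not tested. Of the 9, Cd96, an inhibitory receptor of T and NK cells that is named here after its values were seen, was called lower in α4β7− CD22− than in α4β7+ (log2 fold change −1.51, adjusted p = 0.00183). It was 61.9 ± 4.56, 22.1 ± 8.24, and 46.3 ± 6.62 normalized counts in the 3 subsets. The summed T cell markers had a similar order, 829 to 1388, 537 to 813, and 818 to 1245, and their part in Cd96 was not tested. The shift of Cd96 from α4β7+ to α4β7− CD22− also differed from its shift from there to CD22+ (−2.59, adjusted p = 0.0163). None of the 9 receptors was called in the other comparisons of subsets, with 0 and 1 genes at an unadjusted p below 0.05 in CD22+ over α4β7+ and over α4β7− CD22− (32% and 9.67% of all genes). Of 17 other checkpoint and costimulatory ligands, 14 were tested and none was called in any comparison. By the adjusted p alone, which 14.9% and 21.1% of all genes passed in either direction, 1 rose in α4β7− CD22− and 1 rose and 2 fell in CD22+ over α4β7+. These were, named after their values were seen, the BTLA ligand Tnfrsf14, higher by 0.34 and 0.36, and the SIRPα ligand Cd47 and the CD244 ligand Cd48, lower in CD22+ by 0.30 and 0.35 on the log2 scale. At an unadjusted p below 0.05, 4 of the 14 were found in each of these 2 comparisons, near the 27.1% and 32% of all genes, and 0 between CD22+ and α4β7− CD22−. The median log2 fold changes of these ligands were −0.17, −0.23, and −0.02 in the 3 comparisons.

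Of 14 genes known to act on PD-L1 levels, 1 was called lower and none higher in α4β7− CD22− and in CD22+ over α4β7+, and none between the latter 2, where 2 had an unadjusted p below 0.05 (9.67% of all genes). With 1 of 14 called, the list was near the 8.05% and 12% of all genes called in either direction. The called gene was Myc, a transcription factor of growing cells, at 649 ± 126, 42.6 ± 9.77, and 42.3 ± 20.2 normalized counts in the 3 subsets (log2 fold changes −3.91, adjusted p = 4.14e-07, and −3.99, adjusted p = 9.75e-08). By the adjusted p alone 1 rose and 4 fell in α4β7− CD22−, and 1 rose and 6 fell in CD22+, against 14.9% and 21.1% of all genes in either direction. The gene that rose, named after its values were seen, was Jak2, a kinase of interferon and IL-5 family receptors that lies near Cd274, by 0.34 and 0.47, while Cmtm6, chosen in the same way, whose product keeps PD-L1 at the cell surface, had log2 fold changes of −0.36 and −0.47. So the PD-L1 gene rose where Cmtm6 fell. Irf1 (−0.47 and −0.58) and Hif1a (−0.25 and −0.42) also fell in both comparisons, and Rela and Ifngr2 fell in CD22+ alone. These genes too were named after their values were seen.

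Around CD39 and CD73, 9 of 13 nucleotide and adenosine enzymes and transporters were tested. Of these 2 were called lower in both subsets over α4β7+ and 1 in CD22+ over α4β7− CD22−, and none higher, against 4.35% and 6.39% of all genes called lower and 0.603% called in either direction. They were, named after their values were seen, adenosine deaminase (Ada, log2 fold changes −0.997 and −0.66) and the nucleoside transporter Slc29a2 (−1.95 and −3.50, and −1.55 between CD22+ and α4β7− CD22− with adjusted p = 0.0436). Of 13 nucleotide and adenosine receptors tested of 14, 1 was called higher and 3 lower in α4β7− CD22− and 1 higher and 5 lower in CD22+ over α4β7+, where 8.05% and 12% of all genes were called in either direction. The ADP receptor P2ry12 rose by 1.10 (adjusted p = 0.00816) and 1.33 (0.00131) on the log2 scale. P2ry10, a lysophospholipid receptor of the same family, was lower, at −1.01 (adjusted p = 1.87e-05) and −1.53 (1.27e-07). None was called between CD22+ and α4β7− CD22−, where by the adjusted p alone 2 fell (1.08% of all genes in either direction) and 4 had an unadjusted p below 0.05 (9.67%). The median log2 fold changes of these receptors were −0.55, −0.14, and 0.06 in the 3 comparisons.

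Among 25 other tetraspanins and CD9 partners tested of 29, 1 was called higher and 3 lower in α4β7− CD22−, and 2 higher and 3 lower in CD22+ over α4β7+. These 4 and 5 of 25 stood beside 8.05% and 12% of all genes called. The median log2 fold changes of the list were 0.12 and 0.03. Tspan13 rose from 3266 ± 216 to 6878 ± 232 and 7757 ± 427 normalized counts (log2 fold changes 1.08, adjusted p = 8.25e-08, and 1.25, adjusted p = 5.83e-09). Cd37, a tetraspanin of leukocytes, fell from 2784 ± 153 to 1405 ± 160 and 779 ± 79.0, and it was the 1 gene of the list called between CD22+ and α4β7− CD22− (−0.85, adjusted p = 0.000323). Of 11 other surface genes known on gut eosinophils, 1 was called higher and 7 lower in α4β7− CD22−, and 2 higher and 7 lower in CD22+ over α4β7+, and none between those subsets, where 4 had an unadjusted p below 0.05. Of all genes, 8.05% and 12% were called and 9.67% had such a p, and the median log2 fold changes of the 11 were −0.90, −1.14, and −0.13. The IL-33 receptor gene Il1rl1 was lower, at −3.11 (adjusted p = 5.90e-05) and −3.40 (1.19e-05) on the log2 scale. The 2 genes called higher in CD22+, named after their values were seen, were Itgax (CD11c) and the lectin gene Clec4a4.

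Genes whose log2 levels followed those of each member most closely over the 12 libraries were found by Pearson correlation across all genes tested, as a description of libraries that share subsets and depth. Cd9 had the closest followers, Lpcat2 (r = 0.994), Gapt (0.990), and Vasp (0.988). Cd274 was followed by Kctd6 (0.971), Rere, and 6820431F20Rik (both 0.969), Entpd1 by Map3k14 (0.969), Plaur (0.968), and Plgrkt (0.960), and Cd80 by Rhoh (0.958), Plk3 (0.953), and Antxr2 (0.944). Pdcd1lg2 was followed by Csnk1e (0.952) and Fcrls (0.942). For the other 3 members the closest follower was looser, at 0.926 for Nt5e (Il18rap), 0.897 for Cd86 (Gm12248), and 0.889 for Icosl (Mpp3).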

How the data were processed

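The deposited signal values are normalized counts per gene, which the authors made by trimming reads with Trimmomatic 0.39, pseudoaligning them to mm10 with kallisto 0.46.1, and normalizing with DESeq2 1.38.2, per the submitters' processing notes. Libraries were made from 3 ng of RNA with a stranded total RNA kit. Whole reads were not recovered (38.1% to 69.0% of low values lay within 5% of a whole read), so reads and floors are approximate and cover counting error only.

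The linear models used log2(normalized count + 1) of genes averaging above 10, with the 3 subsets in 1 model and a variance trend (limma 3.58.1 under R 4.3.3, checked on simulated data). Fold changes are on that scale. Benjamini-Hochberg adjustment ran over 15249 genes, and a call needed an adjusted p of at most 0.05 and at least 1.5-fold. Ratios were tested by two-sided exact permutation. The alternatives were 0.1 or 10 as the pseudocount, the filter dropped or raised to 50, quantile normalization, rescaling by the 75th percentile, no trend, the adjusted p alone, only the subsets compared, a replicate block, and each library left out. GENCODE vM21 (GRCm38) matched 35968 of 36047 identifiers, and transcripts were compared with BLAST 2.17.0.

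The genes named are the 8 members, the sort genes and markers, per list and comparison up to 2 called genes of largest change with a mean of at least 100, and the 3 closest followers of a member. Genes outside this rule are said to be named after their values were seen, and a few that it names are left unreported. Same-numbered libraries deviated together in 4 of 4 pairs of α4β7− CD22− and CD22+ (correlations 0.135 to 0.203), so the numbers count as pairs in that comparison, from the data and not the labels, and not in the others. Between α4β7+ and α4β7− CD22− the own number was also highest in every pair. Replicates 1 and 4 there correlated at 0.043 and 0.05, under the cut of 0.1. The main models and tests were unpaired in all comparisons. The members and lists were chosen with earlier results of these data known. Every column of values was matched to a library.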

Additional observations from a re-analysis of the deposited data

Results flagged for a closer look

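One library stood apart within its subset among the 24 sets of 4 libraries examined for the 8 genes. Nt5e was 67.3 normalized counts in α4β7− CD22− replicate 3, against 32.2 to 36.3 in the other 3 libraries, a gap of 0.884 of the subset's whole range, above Dixon's 95% critical value for 4 samples. Chance alone marks about 1 in 20 such sets. Without this library the log2 fold change of Nt5e was −1.06 for α4β7− CD22− over α4β7+ (limma, adjusted p = 0.0238) and 0.18 for CD22+ over α4β7− CD22− (adjusted p = 0.932).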

How the results depend on the processing

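With the adjusted p alone, the members called numbered 5 in α4β7− CD22− over α4β7+ and 6 in CD22+ over α4β7+. For the difference of the 2 shifts, 0 members were called with no filter or no trend, and 2 with a filter at 50, with rescaling by the 75th percentile, and with quantile normalization. Leaving out each library gave 2 to 3 members in α4β7− CD22− over α4β7+, 1 to 4 in CD22+ over α4β7+ (1 without α4β7+ replicate 2, CD22+ replicate 1, or CD22+ replicate 2), 0 in CD22+ over α4β7− CD22−, and 0 to 2 for the difference of the shifts (2 without α4β7+ replicate 1, 0 without α4β7− CD22− replicate 1 or 3). The other alternatives kept the number of members called within 1.5 times. Nt5e in CD22+ over α4β7+ was not called with no filter (adjusted p = 0.0954), a filter at 50 (0.0508), or rescaling (0.0569), and Cd9 there fell short of 1.5-fold under quantile normalization (−0.49). Cd80 missed an adjusted p of 0.05 with no filter in α4β7− CD22− (0.0658) and CD22+ (0.0956) over α4β7+, and in the latter with no trend (0.0546). Pdcd1lg2 missed it in CD22+ over α4β7+ with only the subsets compared (0.061). The cause of these changes was not tested.

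Log2 fold changes whose sign turned were small ones. Leaving out each library, Cd80 in CD22+ over α4β7− CD22− ranged from −0.15 to 0.051 (the last without CD22+ replicate 3), and Icosl ranged from −0.068 to 0.090 in α4β7− CD22− over α4β7+, from −0.033 to 0.13 in CD22+ over α4β7+ (both lowest without α4β7+ replicate 2), from −0.018 (without α4β7− CD22− replicate 4) to 0.071 in CD22+ over α4β7− CD22−, and from −0.10 to 0.099 for the difference of the shifts. That difference was 0.0012 with rescaling, and 0.055, 0.021, 0.099, 0.018, and 0.0017 without α4β7+ replicate 3 or 4, α4β7− CD22− replicate 4, or CD22+ replicate 1 or 2. Nt5e in CD22+ over α4β7− CD22− ranged from −0.17 to 0.18, with 0.18 without α4β7− CD22− replicate 3 and 0.020 without CD22+ replicate 2.

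Under a block for the replicate number, the member counts were 2, 3, 0, and 1, and no call of a member changed. Over all genes the block gave 1254, 1843, and 100 calls, against 1228, 1829, and 92. The deviations of same-numbered libraries correlated between −0.059 and 0.203, over 0.1 in 7 of 12 pairs, with the own number highest in 10, and the labels do not say that a number marks shared mice. All 4 pairs of α4β7− CD22− with CD22+ were over 0.1, and not all in the other comparisons, so only there were the numbers taken as pairs. The own number was also highest in every pair of α4β7+ with α4β7− CD22−, so this choice rests on the cut of 0.1. Under the block a ratio of 4 pairs cannot go below an exact p of 0.125, and with 3 against 4 libraries 0.0571 is the smallest, so neither bears on the stability of the ratios. The blocked differences in log2 ratio were −0.49 and 0.35 for Cd274 to Pdcd1lg2 (α4β7− CD22− over α4β7+, CD22+ over α4β7− CD22−), 0.83 for Cd80 to Cd86 (CD22+ over α4β7+), and 1.61 and 1.48 for Entpd1 to Nt5e (α4β7− CD22− and CD22+ over α4β7+). Leaving out each library, these ranged from −0.56 to −0.40, 0.29 to 0.40, 0.64 to 0.95, 1.43 to 1.82, and 1.30 to 1.68. Entpd1 to Nt5e in CD22+ over α4β7− CD22− ranged from −0.34 to 0.024, the last without α4β7− CD22− replicate 1. Depth limits Nt5e most, at 32.0 to 86.9 normalized counts per library.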
